A study of Mus musculus with 12 samples.

Results

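The endothelium is the single cell layer that lines the aorta, and 36 genes that mark or define it were followed in RNA from whole thoracic aorta, out of 25284 genes in the count table. The genes were chosen by symbol: cell contact proteins, receptors, transcription factors and secreted proteins that endothelial cells are known for. Vwf and Esm1 had already been seen to be higher in the treated mice when the list was drawn up, so their own values describe the data and do not serve as an independent test. The open question was whether the other members differed in the same way. All 36 had a row in the table and all 36 passed the filter on low counts, with at least 31 counts in every mouse.

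All 12 mice were male ApoE-/- on a C57BL/6 background. They lack apolipoprotein E, the protein by which the liver takes up lipoprotein remnants, and they ate a high fat, cholesterol enriched diet that brings on atherosclerosis. The 6 control mice (C1 to C6) received vehicle, cyclodextrin in saline, from osmotic minipumps under the skin for 8 weeks. The 6 AZ6983 mice (A1 to A6) received AZ6983, an agonist of the alpha 7 nicotinic acetylcholine receptor, from the same kind of pump for 8 weeks, at a daily dose of 50 µmol per kg. The labels give an age of 18 weeks for every mouse. The aorta was taken whole and was not sorted, so fewer endothelial cells and less RNA per endothelial cell cannot be told apart.

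Endothelial cells hold to each other through VE-cadherin (Cdh5), PECAM-1 (Pecam1) and claudin-5 (Cldn5), which keep the vessel wall closed to blood. They sense growth factors of the VEGF and angiopoietin families through receptor tyrosine kinases, and ETS and SOX transcription factors keep their gene program on. Their surface keeps blood from clotting through thrombomodulin and the protein C receptor, while stored von Willebrand factor is released to catch platelets when a vessel is injured. In arteries, steady flow keeps Klf2 and Klf4 on and the connexins Gja4 and Gja5 link neighbouring cells.

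The libraries held 23810036 to 35864666 counts on genes. The percentage of reads counted on no gene was 10.1 ± 1.55 in controls and 12.8 ± 1.36 in AZ6983 mice (mean ± SD, n = 6 each), which differed (exact permutation test, two-sided, p = 0.0108). Where in the genome these reads lay was not examined. Single libraries stood apart in genes of other cells. Mouse A4 had a summed level of 1051 CPM (counts scaled to one library size with edgeR's TMM factors) over 10 T cell and thymocyte genes, against 3.27 to 41.8 in the other 11 mice. Mouse A5 had 5932 CPM over 8 brown fat genes, against 2440 to 4591 in the others, and mouse A3 had 474 CPM over 12 platelet genes, against 112 to 216.

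Across the 36 genes the difference between the groups was small. The log2 fold change, AZ6983 minus control, was above 0 for 27 genes and below 0 for 9, where 52.4% of all 15857 genes tested were above 0 and 47.6% below. In 16 of the 36, 5 or 6 of the AZ6983 mice were above the control median, which held for 23.7% of all genes. The members share cells and libraries, so these are counts over related values. The median log2 fold change of the 36 was 0.13, a 1.10-fold higher level, beside 0.01 over all genes tested. Without Vwf and Esm1, for which the list was drawn up, 25 of 34 were above 0 and the median was 0.11. In edgeR's quasi-likelihood test 0 of the 36 genes passed 10% FDR, as did 0% of all genes in either direction, and the smallest edgeR adjusted p among them was 0.447. At an unadjusted p under 0.05, 6 members were higher and 0 lower in AZ6983 mice, where the background over all genes was 7.38% higher and 2.81% lower. Without Vwf and Esm1 it was 4 of 34 higher, or 11.8%. Limma-voom also called 0 members at 10% FDR. DESeq2, the tool of the study, run on every gene, called 2 members higher, Vwf and Esm1, and 0 lower, and it called 0.369% of all genes higher and 0.153% lower. These are the 2 genes already seen to be higher, and of the other 34 members it called 0. At an unadjusted p under 0.05 DESeq2 had 7 members higher, the 6 of edgeR and Apln, and 0 lower, or 5 of 34 higher without Vwf and Esm1, where the background was 5.14% and 2.77%. That background includes genes of few counts, and on the genes past edgeR's filter DESeq2 had 6 members higher, beside 6.92% of those genes. The 95% interval of the log2 fold change stayed within a 1.5-fold change in either direction for 28 of the 36 genes.

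**Figure D1:**
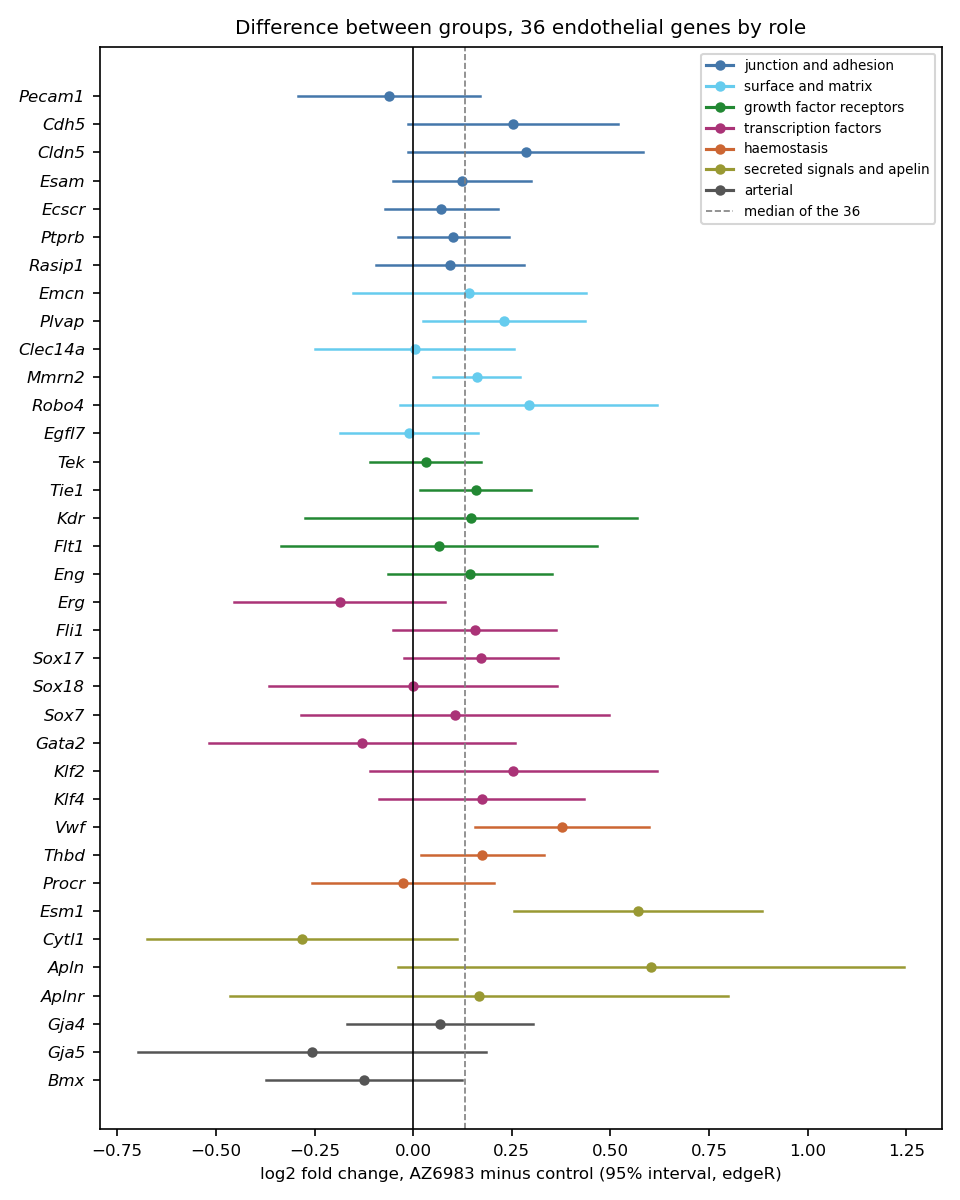
Log2 fold change of each of the 36 endothelial genes (AZ6983 minus control, edgeR, x axis), with its 95% interval, coloured by role, and the median of the 36 as a dashed line. Points lie to the right of 0 for 27 genes, and 6 intervals, those of Vwf, Esm1, Mmrn2, Thbd, Plvap and Tie1, do not reach 0.

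Promoter windows were read for the members to show which letters lie before their starts. RefSeq windows (GRCm38.p6) matched 22 of the 36 genes, with 27 windows, and the 250 bases before the start were searched on both strands for 4 short motifs. GGAAGT, the core letters of ETS factor sites, was in 22.2% of the member windows and in 19.7% of 32851 windows of all genes. For the SOX factor letters AACAAT the shares were 11.1% of member windows and 9.42% of all windows. The KLF factor letters CACACCC were in 7.41% and 6.93%, and the GATA factor letters AGATAA in 3.7% and 9.99%. The windows of the 3 members with the largest log2 fold changes among those lying outside annotated exons, Apln, Esm1 and Cldn5, hold none of the 4 motifs. Those of Flt1, Eng and Tek are shown beside them because each holds 1 match, printed in capitals, so that no matches overlap. They lie at chrX:48034854-48035103 (minus strand) for Apln, chr13:113209409-113209658 (plus strand) for Esm1, chr16:18776597-18776846 (plus strand) for Cldn5, chr5:147726012-147726261 (minus strand) for Flt1, chr2:32646345-32646594 (plus strand) for Eng and chr4:94739039-94739288 (plus strand) for Tek, and run 5′ to 3′ toward the start.
Apln: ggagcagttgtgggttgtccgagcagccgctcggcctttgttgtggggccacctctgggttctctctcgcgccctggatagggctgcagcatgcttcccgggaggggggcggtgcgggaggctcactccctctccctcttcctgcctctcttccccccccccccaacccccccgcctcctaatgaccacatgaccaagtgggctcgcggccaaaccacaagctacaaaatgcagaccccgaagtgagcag
Esm1: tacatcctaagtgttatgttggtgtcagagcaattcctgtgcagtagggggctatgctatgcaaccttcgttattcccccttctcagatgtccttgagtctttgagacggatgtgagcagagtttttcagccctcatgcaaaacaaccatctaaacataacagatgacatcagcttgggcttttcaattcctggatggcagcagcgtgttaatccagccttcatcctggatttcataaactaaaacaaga
Cldn5: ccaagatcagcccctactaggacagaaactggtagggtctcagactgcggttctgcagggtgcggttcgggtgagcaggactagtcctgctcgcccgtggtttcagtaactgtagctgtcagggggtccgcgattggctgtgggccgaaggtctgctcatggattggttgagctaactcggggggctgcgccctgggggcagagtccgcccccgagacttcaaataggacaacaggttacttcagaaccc
Flt1: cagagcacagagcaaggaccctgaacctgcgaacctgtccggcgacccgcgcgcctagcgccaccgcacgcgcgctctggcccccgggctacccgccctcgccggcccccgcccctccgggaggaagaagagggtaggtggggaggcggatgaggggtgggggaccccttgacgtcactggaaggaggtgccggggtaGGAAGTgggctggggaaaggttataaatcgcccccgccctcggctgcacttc
Eng: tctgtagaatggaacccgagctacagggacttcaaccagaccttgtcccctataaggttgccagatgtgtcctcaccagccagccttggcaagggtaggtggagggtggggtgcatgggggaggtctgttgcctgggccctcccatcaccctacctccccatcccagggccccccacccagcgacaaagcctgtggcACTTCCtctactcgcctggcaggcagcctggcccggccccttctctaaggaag
Tek: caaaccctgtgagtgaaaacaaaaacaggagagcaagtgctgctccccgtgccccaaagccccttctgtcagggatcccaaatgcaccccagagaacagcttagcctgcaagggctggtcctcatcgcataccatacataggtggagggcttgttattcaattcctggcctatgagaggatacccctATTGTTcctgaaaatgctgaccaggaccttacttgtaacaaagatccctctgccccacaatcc

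The windows of Flt1 and Eng hold the ETS letters GGAAGT (on the opposite strand in Eng) and that of Tek holds the SOX letters (on the opposite strand), while the log2 fold changes of these genes were 0.07, 0.14 and 0.03. A match is a run of letters and no evidence that a factor binds there.

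Von Willebrand factor (Vwf) lies on chromosome 6 at 125546774 to 125686679 (plus strand, GRCm38). In controls it was at 232 CPM at the lowest, 273 at the median and 292 at the highest, and in AZ6983 mice at 276, 356 and 415. In 5 of the 6 AZ6983 mice it was above every control, and the groups overlapped through A4, the lowest treated mouse. The log2 fold change was 0.38 (standard error 0.102, 95% interval 0.16 to 0.60, unadjusted p = 0.00265, adjusted p = 0.447 from edgeR), and DESeq2 gave an adjusted p of 0.0827. The edgeR log2 fold change ran from 0.32 to 0.43 with a mouse left out, and DESeq2 lost its call without C1, C3, C4, C5, A2, A3 or A6, where its adjusted p ran up to 0.455. The fits without a call of Vwf called 20 to 119 genes in all, and the others 67 to 388. With the percentage of reads on no gene as a term in edgeR the log2 fold change of Vwf was 0.25 (unadjusted p = 0.105). That percentage differed between the groups, so such a fit cannot fully tell it apart from treatment. Set against the median of the 36 members within each mouse, both centred on their medians over the 12 mice, Vwf was at −0.26 to 0.05 log2 units in controls and −0.12 to 0.41 in AZ6983 mice.

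Megakaryocytes and platelets also make von Willebrand factor, so their genes were read beside it. Of 11 tested platelet genes, 6 had an unadjusted p under 0.05 and were higher in AZ6983 mice, 0 were lower, and the median log2 fold change was 2.003. Without A3, 1 of the 11 was higher and the median was 0.57. It was 7 of the 11 without A4 and 10 without A5, with a median of 2.10 in each of these fits. The summed level of the 12 listed genes was 119 to 167 CPM in controls and 112 to 474 CPM in AZ6983 mice, with A3 at the top, with no difference found between groups (two-sided exact permutation test on log2 sums, p = 0.16, adjusted p = 0.519 over 16 lists). In controls most of that sum was Itgb3, which was at 90.4 to 136 CPM in controls and 86.8 to 169 CPM in AZ6983 mice. The sum therefore says little about the other 11 genes. None of the 12 was at 0 in all mice. Counts of Gp1ba, the platelet receptor that von Willebrand factor binds, were 2 to 6 in the controls and 10 to 40 in the treated mice. Mouse A6, with the highest Vwf, had a platelet sum of 151 CPM, inside the control range, and without mouse A3 the log2 fold change of Vwf was 0.35 (unadjusted p = 0.0062). Mouse A3, with the highest platelet sum, had 377 CPM of Vwf, below A6 only. The part of platelet RNA in the Vwf values was not tested.

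The other proteins of this kind act against clotting. Thrombomodulin (Thbd), which turns thrombin into an activator of protein C, was at 122, 134 and 159 CPM (lowest, median and highest) in controls and 134, 155 and 165 CPM in AZ6983 mice. All 6 treated mice were above the control median and 2 above every control. Its log2 fold change was 0.18 (standard error 0.0724, unadjusted p = 0.0308, under 0.05 in 6 of 12 fits with a mouse left out), and 0.07 with the percentage of reads on no gene as a term. The protein C receptor (Procr) had a log2 fold change of −0.03 (95% interval −0.26 to 0.20), a range that holds the log2 fold change of Thbd.

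Among the secreted signals, Esm1 (endocan, a proteoglycan that sprouting tip cells release, chromosome 13, 113209659 to 113218098, plus strand) was at 2.95, 3.70 and 5.17 CPM in controls and 5.11, 5.79 and 6.94 CPM in AZ6983 mice. Only A5 was below the highest control, C3. The promoter window of Esm1, printed with that of Apln, held none of the 4 motifs. The log2 fold change of 0.57 (standard error 0.145, 95% interval 0.26 to 0.88) had an unadjusted p of 0.00179 and an adjusted p of 0.447 in edgeR, and an adjusted p of 0.0686 in DESeq2. The gene is sparse, since controls held 85 to 150 counts of it and AZ6983 mice 125 to 204. The edgeR log2 fold change ran from 0.48 to 0.65 with a mouse left out, and DESeq2 lost its call without C1, C5, A2, A3 or A6, where its adjusted p ran up to 0.345. The fits without a call of Esm1 called 20 to 119 genes in all, and the others 29 to 388. With the percentage of reads on no gene as a term the log2 fold change of Esm1 was 0.55 (unadjusted p = 0.0305).

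Apelin (Apln), a peptide hormone also tied to tip cells, had the largest log2 fold change of the 36, 0.60, and the widest interval, −0.04 to 1.24. Its levels were 1.08 to 2.63 CPM in controls and 1.41 to 4.74 CPM in AZ6983 mice, from 31 to 127 counts per mouse. This gene was singled out after its values were seen. With the percentage of reads on no gene as a term its log2 fold change was 0.04. The apelin receptor (Aplnr) was at 0.17 (95% interval −0.47 to 0.80), with control mouse C4 at 1.64 CPM and the other 11 mice at 5.12 to 8.82. The most abundant member per kilobase of exon was Cytl1, a secreted cytokine-like protein that cartilage cells also make. It was at 139.6, 161 and 229.5 CPM in controls and 89.7, 144 and 198 CPM in AZ6983 mice, with 3 treated mice below every control, and its log2 fold change was −0.28 (standard error 0.182, unadjusted p = 0.146). Of 7 tested cartilage genes 2 were lower and 0 higher at an unadjusted p under 0.05. The summed level of the 9 listed was 85.7 to 153 CPM in controls and 74.7 to 152 CPM in AZ6983 mice, and none was at 0 in all mice. Comp and Acan had the highest control medians of the 9, 53.3 and 34.97 CPM, so the sum says little about Col2a1. The part of cartilage RNA in the Cytl1 values was not tested.

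**Figure D2:**
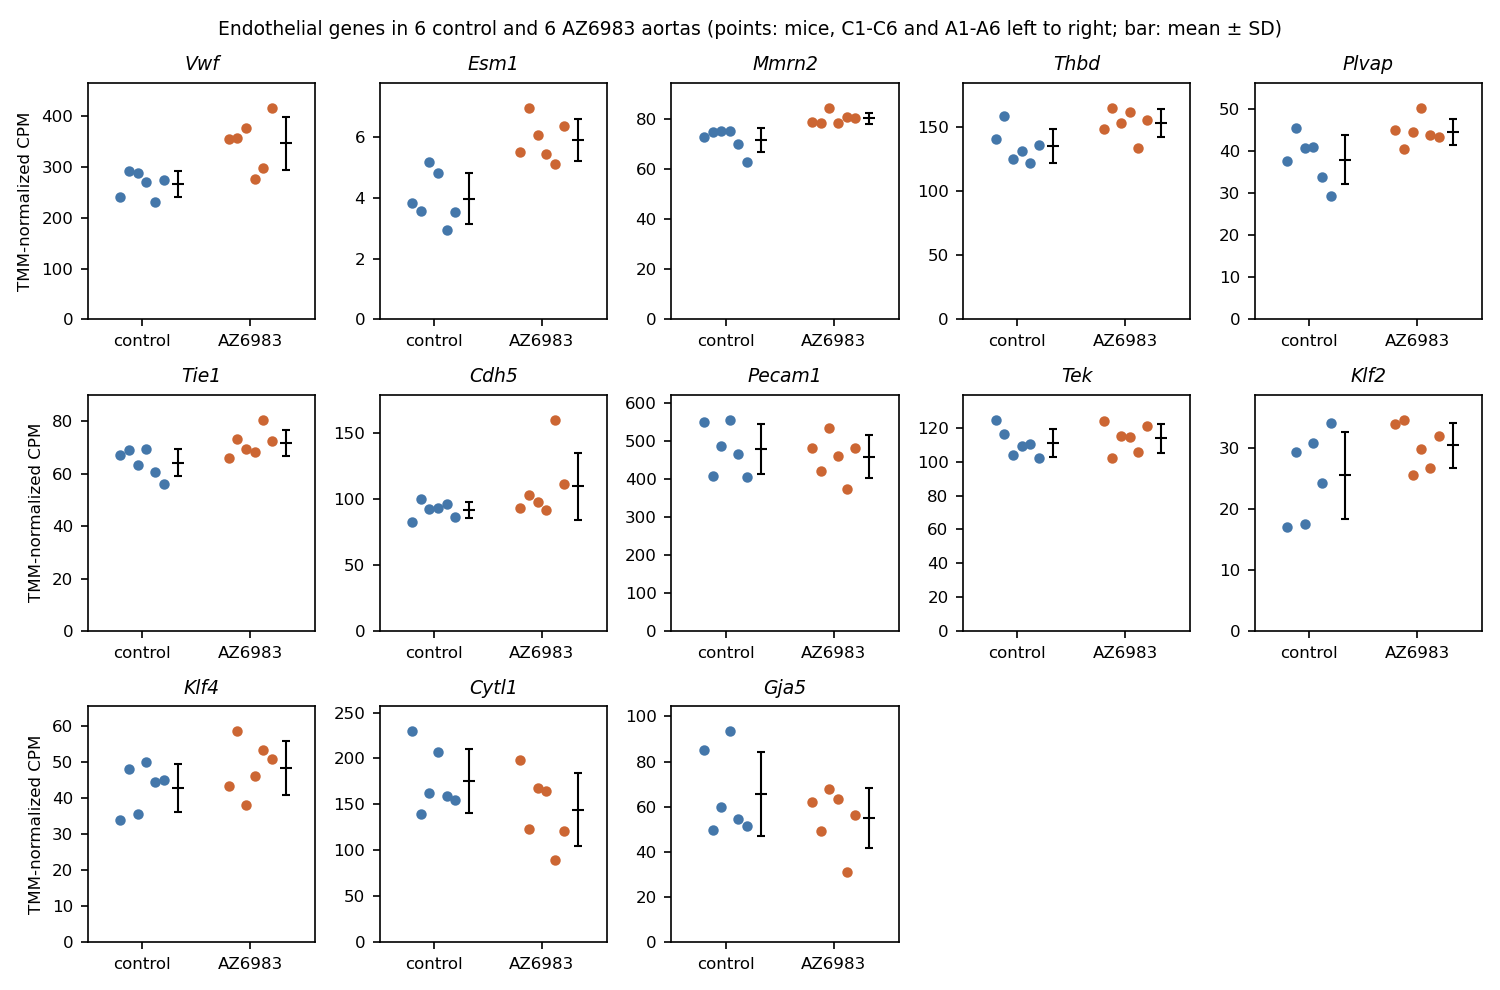
TMM-normalized CPM (y axis, from 0) of 13 endothelial genes in each control (blue) and AZ6983 mouse (orange), with the mean ± SD of each group (n = 6) beside the points. For Mmrn2 the treated mice, from 78.7 CPM, all lie above the highest control, 75.4 CPM, while in the other 12 genes the groups overlap.

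Mmrn2 (multimerin 2, a glycoprotein of the endothelial matrix that binds the surface lectin CLEC14A, chromosome 14, 34375465 to 34404287, plus strand) was the only member whose groups did not overlap. Non-overlap with the higher values in AZ6983 mice was found in 0.259% of all genes tested. It was at 62.9, 73.9 and 75.4 CPM in controls and 78.7, 79.8 and 84.4 CPM in AZ6983 mice. The difference was small in size, a log2 fold change of 0.16 (standard error 0.0510, 95% interval 0.05 to 0.27, unadjusted p = 0.0076, adjusted p = 0.447). It kept an unadjusted p under 0.05 in each of the 12 fits with a mouse left out and with the percentage of reads on no gene as a term (log2 fold change 0.17, unadjusted p = 0.0363). Its partner Clec14a, in contrast, had a log2 fold change of 0.00 (95% interval −0.25 to 0.26), and the difference between these 2 changes was not tested.

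The remaining surface proteins differed among themselves. Plvap, which forms the diaphragms of endothelial pores and caveolae, was at 29.3, 39.3 and 45.6 CPM in controls and 40.6, 44.2 and 50.3 CPM in AZ6983 mice. All 6 treated mice were above the control median but only A4 exceeded the highest control, C2. The log2 fold change was 0.23 (standard error 0.0951, unadjusted p = 0.0314, under 0.05 in 6 of 12 fits with a mouse left out). Robo4, a guidance receptor that steadies the vessel barrier, had a log2 fold change of 0.29 (95% interval −0.03 to 0.62) with A5 at 18.3 CPM and the other 11 mice at 8.26 to 12.3, and without A5 it was 0.13. The sialomucin endomucin (Emcn) was at 0.14, or 0.04 without A5, and the matrix-bound factor Egfl7 at −0.01, and neither had an unadjusted p under 0.05.

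The cell contact genes gave 6 log2 fold changes above 0 and 1 below, and none of the 7 had an unadjusted p under 0.05. VE-cadherin (Cdh5), the defining protein of endothelial adherens junctions, was at 82.5, 92.6 and 99.8 CPM in controls and 91.2, 100.4 and 159.7 CPM in AZ6983 mice. The value of 159.7 CPM belonged to A5 alone, and the next highest was A6 at 111 CPM. Its log2 fold change was 0.25 (standard error 0.123, unadjusted p = 0.0599) with all mice and 0.10 (unadjusted p = 0.179) without A5. PECAM-1 (Pecam1), on endothelial cells, platelets and leukocytes, was at 405, 478 and 557 CPM in controls and 373, 473 and 534 CPM in AZ6983 mice. The groups covered nearly the same range, and the log2 fold change was −0.06 (95% interval −0.29 to 0.17). Tight junction claudin-5 (Cldn5) had a log2 fold change of 0.29 (95% interval −0.01 to 0.58), with 4 of 6 treated mice above every control and A2 below every control. Of the others, Esam was at 0.12, the VE-cadherin phosphatase Ptprb at 0.10, Rasip1, which acts in forming the vessel lumen, at 0.09, and Ecscr at 0.07. Without A5 Ptprb was at 0.06 and Rasip1 at 0.02.

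The receptors of growth factors gave 5 log2 fold changes above 0. Tie1, which works with the angiopoietin receptor Tek, was at 56.1, 65.3 and 69.5 CPM in controls and 66.1, 71.0 and 80.6 CPM in AZ6983 mice, with 4 treated mice above every control. Its log2 fold change was 0.16 (standard error 0.0655, unadjusted p = 0.0315, under 0.05 in 5 of 12 fits with a mouse left out), and 0.10 (unadjusted p = 0.143) without A5. Tek itself was at 102, 110 and 125 CPM in controls and 102, 115 and 124 CPM in AZ6983 mice, and its log2 fold change was 0.03 (95% interval −0.11 to 0.17). Endoglin (Eng), a co-receptor for BMP ligands, was at 0.14 (unadjusted p = 0.16), and at 0.07 without A5. The VEGF receptors Kdr and Flt1 were at 0.15 and 0.07, with intervals from −0.27 to 0.57 and from −0.34 to 0.47. Both rested on A5, which had 184 CPM of Kdr and 144 CPM of Flt1 where the other 11 mice had 76.4 to 118 and 57.7 to 97.3. Without A5 the log2 fold changes were −0.09 and −0.14. Of 9 tested ligands and partners of these receptors 1 had an unadjusted p under 0.05, Angpt1, the activating ligand of Tek. Its counts were 304 to 460 in controls and 380 to 840 in the treated mice, and it differed by 0.61 ± 0.199 on the log2 scale (± standard error, edgeR adjusted p = 0.447).

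Transcription factors of endothelial identity showed no shared direction, with 5 log2 fold changes above 0, 3 below and none with an unadjusted p under 0.05. The ETS factors differed in sign, Fli1 at 0.16 (95% interval −0.05 to 0.36) and Erg at −0.19 (−0.45 to 0.08). Without A5 they were 0.08 and −0.15, and without both A4 and A5 Fli1 was at 0.00244. Of the SOX factors of the endothelium, Sox17 was at 0.17, Sox7 at 0.11 and Sox18 at 0.00, and without A5 they were at 0.09, −0.09 and −0.14. Gata2 was at −0.13, with control C3 at 16.5 CPM and the other 11 mice at 7.52 to 11.7, and without C3 it was 0.05. Klf2, induced by flow, was at 17.1, 26.7 and 34.04 CPM in controls and 25.6, 30.8 and 34.6 CPM in AZ6983 mice. The groups overlapped, with A2 alone above the highest control and C1, C3 and C5 below every treated mouse, and the log2 fold change was 0.25 (standard error 0.168, unadjusted p = 0.154). Klf4 was at 33.9, 44.8 and 49.9 CPM in controls and 37.9, 48.4 and 58.4 CPM in AZ6983 mice, and its log2 fold change was 0.17 (standard error 0.12, unadjusted p = 0.172). Both genes also respond to handling of tissue, and 8 immediate early genes, which do so too, had 0 members with an unadjusted p under 0.05 and a median log2 fold change of 0.08. Their summed level was 203 to 630 CPM in controls and 220 to 529 CPM in AZ6983 mice, and none was at 0 in all mice.

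Of the 3 genes of arterial endothelium, 2 had a log2 fold change below 0 and 1 above, and none had an unadjusted p under 0.05. Connexin 40 (Gja5) was at 49.9, 57.3 and 93.4 CPM in controls and 31.0, 59.4 and 68.0 CPM in AZ6983 mice. Controls C1 and C4 stood above all other mice and A5 stood lowest, and the log2 fold change was −0.26 (standard error 0.204, 95% interval −0.70 to 0.18, unadjusted p = 0.231). The kinase Bmx was at −0.13 and connexin 37 (Gja4) at 0.07. Without A5 the log2 fold changes were −0.16 for Gja5, −0.07 for Bmx and 0.12 for Gja4.

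**Figure D3:**
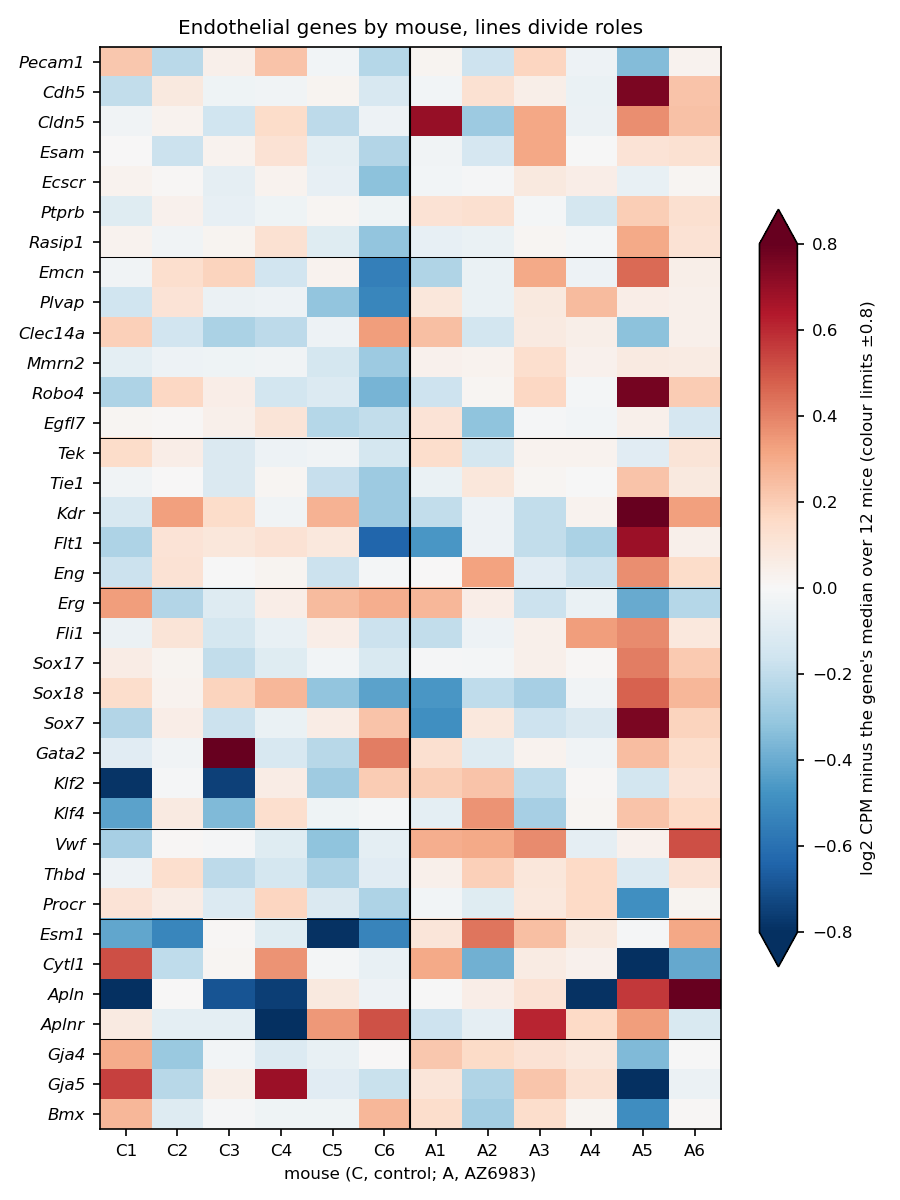
Log2 CPM of the 36 endothelial genes (rows, grouped by role) in each mouse (columns) minus the median of that gene over the 12 mice, on a colour scale held at ±0.8. Mouse A5 was the highest of 12 in 13 genes, Cdh5, Kdr and Flt1 among them, and the lowest in 8, Gja5 and Cytl1 among them.

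Mouse by mouse, each member was centred on its median over the 12 mice, and the median of the 36 was taken. It ran from −0.13 to 0.01 log2 units in controls and from −0.04 to 0.15 in AZ6983 mice. In every mouse some members lay above and others below their own median, and the difference between groups was not tested. The number of members above their own median over the 12 mice was 8 to 22 of 36 in controls and 15 to 30 in AZ6983 mice, with C6 the lowest, A6 the highest and C2, at 22, the only control above 16. Over all genes tested, 45.6% to 54.2% were above their median in a mouse. Mouse C6 held the lowest value of 10 members, all contact proteins, surface proteins or growth factor receptors, where 10.3% of all genes were lowest in it. Mouse A5 held the highest value of 13 members and the lowest of 8, where 18.5% of all genes were highest and 21.5% lowest in it. The genes highest in A5 were Cdh5, Ptprb, Rasip1, Emcn, Robo4, Tie1, Kdr, Flt1, Eng, Fli1, Sox17, Sox18 and Sox7, and those lowest in it were Pecam1, Clec14a, Erg, Procr, Cytl1, Gja4, Gja5 and Bmx.

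Summed markers of capillary endothelium and of white fat were highest in A5 and lowest in C6. Brown fat genes were also highest in A5, but C6, at 2770 CPM, stood above A1, A2, A3 and A4. The summed level of 7 capillary genes, such as Gpihbp1, which anchors lipoprotein lipase in capillaries of fat and muscle, was 299 CPM in A5 and 130 CPM in C6, with the other 10 mice at 149 to 204. White fat genes summed to 8343 CPM in A5 and 3428 CPM in C6, the highest and lowest of the 12 mice, and none of the listed capillary, brown fat or white fat genes was at 0 in all mice. Between the groups, 0 of 7 capillary genes had an unadjusted p under 0.05 with all mice, 1 was lower without A5, and their summed level was not separated (exact permutation test on log2 sums, two-sided, p = 0.701, adjusted p = 0.745 over 16 lists). Without A5, 25 of the 36 endothelial genes had a log2 fold change above 0, beside 48.2% of all genes, and the median was 0.07. In that fit Mmrn2, Vwf, Thbd and Esm1 were higher at an unadjusted p under 0.05, as were 5.85% of all genes. Without both A4 and A5, 24 of the 36 were above 0, beside 45.9% of all genes, and the median was 0.08. The part of capillary and fat RNA in the endothelial values was not tested.

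**Figure D4:**
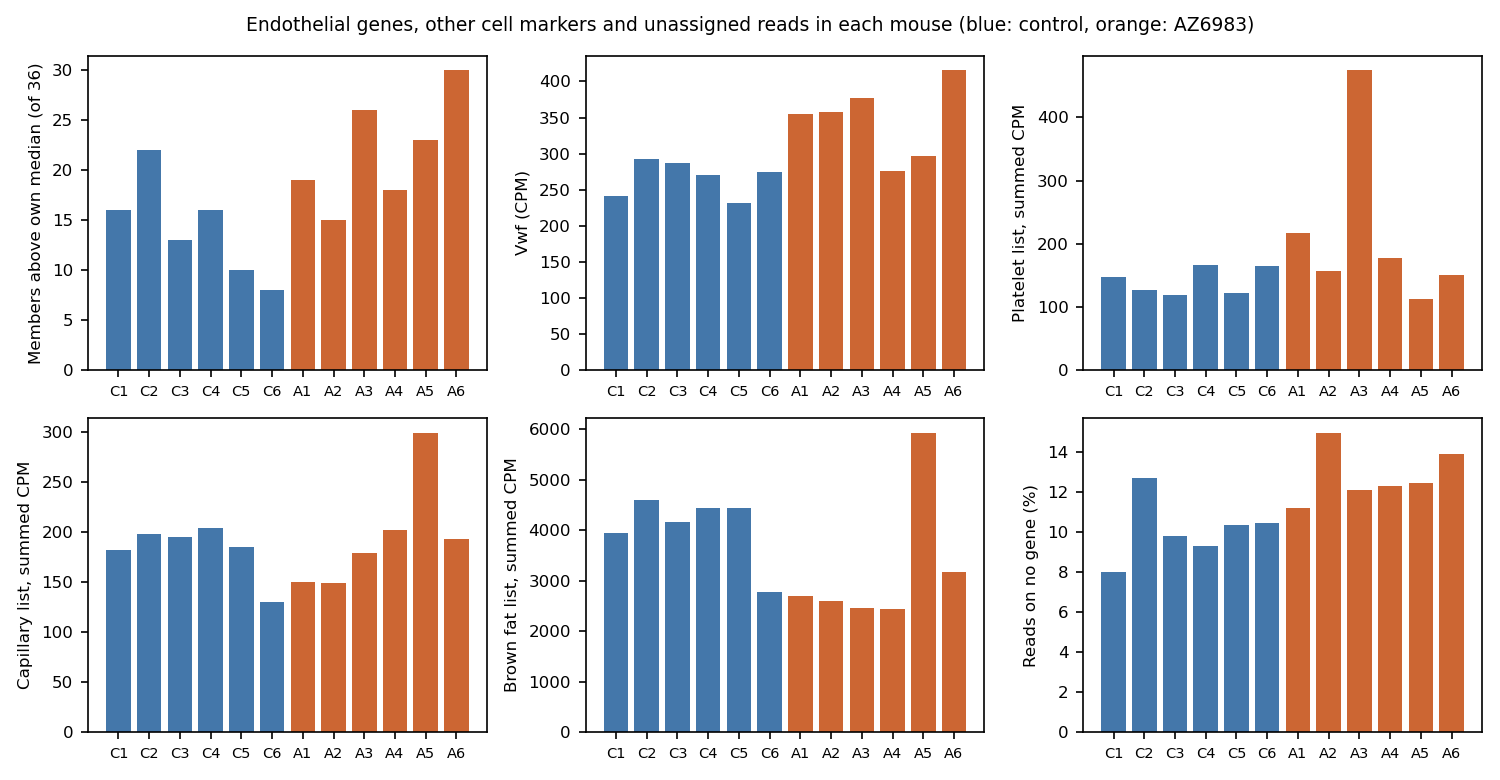
Bars from 0 for each control (blue) and AZ6983 mouse (orange) show the number of endothelial genes above their own median, Vwf in CPM, the summed CPM of platelet, capillary and brown fat genes, and the percentage of reads on no gene. A3 stands out in platelet genes (474 CPM) and A5 in capillary (299 CPM) and brown fat genes (5932 CPM), while Vwf is highest in A6 (415 CPM).

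A further 24 endothelial genes outside the 36, such as Nos3, Cd34 and Cd93, were read in the same fit. Of these, 19 had a log2 fold change above 0, the median was 0.08, and 1 had an unadjusted p under 0.05, Cd93, a surface receptor that also binds multimerin 2. Its counts were 3148 to 4085 in controls and 3620 to 4881 in the treated mice, and it differed by 0.21 ± 0.0710 on the log2 scale (± standard error, edgeR adjusted p = 0.45). Nos3, the endothelial nitric oxide synthase, was at 0.02 (standard error 0.0862) and Icam2 at −0.02 (standard error 0.0977). The summed level of the 24 genes was 2161 to 2268 CPM in controls and 2262 to 2382 CPM in AZ6983 mice, where only A2 fell below the highest control, C2. That sum differed by 0.07 on the log2 scale (exact permutation test, two-sided, p = 0.00433, adjusted p = 0.0693 over 16 lists), and Mcam, which smooth muscle cells also make, held 25.6% of it. Ets1, also in the sum, was at 190 CPM in A4, the mouse with the high T cell sum. Its median was 76.8 CPM over the AZ6983 mice, and the controls were at 62.5 to 77.3 CPM. How far Ets1 in A4 set the difference in the sum was not tested.

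Lymphatic and venous genes gave the endothelial types that the 36 cover least. Of 6 lymphatic genes 5 had a log2 fold change above 0, with a median of 0.37, and Flt4, the lymphatic VEGF receptor, had an unadjusted p of 0.0116 (log2 fold change 0.41, standard error 0.14, 280 to 462 counts per control and 403 to 566 per AZ6983 mouse). Prox1, the factor that sets lymphatic identity, had 24 to 92 counts in controls and 83 to 119 in AZ6983 mice (log2 fold change 0.67, unadjusted p = 0.0612). The sum of the 6 was 100 to 175 CPM in controls and 132 to 164 CPM in AZ6983 mice. Of 7 venous or activation genes, Ephb4 was higher (log2 fold change 0.13) and E-selectin (Sele) lower (−0.60, from 105 to 258 counts in controls and 58 to 147 in AZ6983 mice) at an unadjusted p under 0.05, and neither passed 10% FDR.

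**Figure D5:**
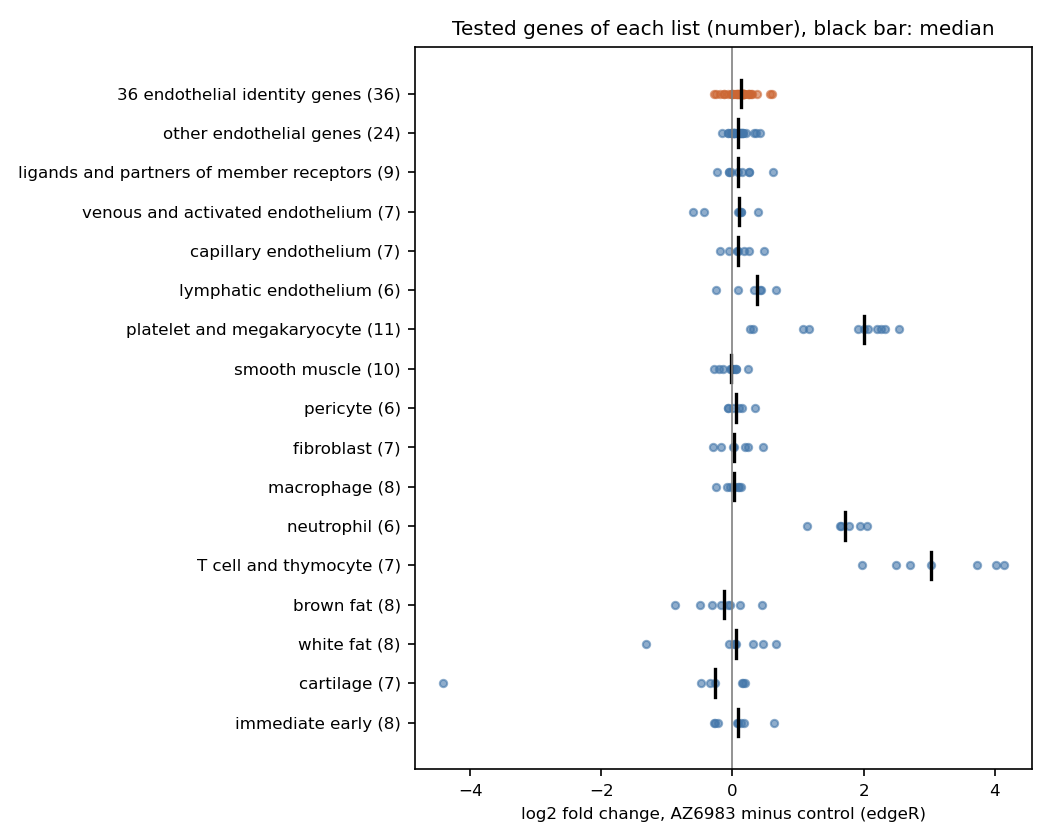
Log2 fold change (AZ6983 minus control, edgeR, x axis) of each tested gene in the 36 endothelial genes (orange) and 16 other lists (blue), with the median of each list as a black bar and the number of tested genes in brackets. The endothelial genes and the other 24 endothelial genes centre close to 0 (medians 0.13 and 0.08), while neutrophil genes (1.71), platelet genes (2.003, or 0.57 without A3) and T cell genes (3.03, or 0.07 without A4) lie to the right.

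Other cells of the vessel wall gave the frame for these values. Of 10 smooth muscle genes 1 was lower and 0 higher at an unadjusted p under 0.05, with a median log2 fold change of −0.02, and the 8 macrophage genes had 0 in either direction and a median of 0.02. The 7 fibroblast genes had 0 in either direction and a median of 0.02, and of 6 pericyte genes 1 was higher, with a median of 0.05. All 6 neutrophil genes were higher at an unadjusted p under 0.05, and their smallest edgeR adjusted p was 0.428. Their summed levels were 16.7 to 53.1 CPM in controls and 34.2 to 239 CPM in AZ6983 mice (two-sided exact permutation test on log2 sums, p = 0.0216, adjusted p = 0.173 over 16 lists). The 7 tested T cell genes had an unadjusted p under 0.05 with all mice and a median log2 fold change of 3.03, but 0 of 7 and a median of 0.07 without A4. The median of their summed level was 17.0 CPM over the controls and 14.6 CPM over the treated mice, and the sum did not separate the groups (two-sided exact permutation test, p = 0.303, adjusted p = 0.596 over 16 lists). The brown fat sum had a median of 4310 CPM over the controls and 2646 CPM over the AZ6983 mice. It did not separate the groups (two-sided exact permutation test on log2 sums, p = 0.104, adjusted p = 0.519). At an unadjusted p under 0.05, 1 of 8 brown fat genes was lower and 0 higher, and of 8 white fat genes 1 was higher and 1 lower. Without A5, 4 brown fat and 2 white fat genes were lower and 0 higher. None of the genes of these lists was at 0 in all mice, and their part in the endothelial values was not tested.

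Per kilobase of exon, and as a mean over the 12 mice, the order of levels was led by Cytl1 (151 CPM per kilobase), Pecam1 (75.4), Thbd (38.8) and Ptprb (30.7). The next, Cdh5 and Tek, at 23.9 each, did not differ beyond their spread, since controls ran from 19.6 to 23.8 for Cdh5 and from 21.7 to 26.5 for Tek. Plvap, Mmrn2, Vwf, Eng and Cldn5 followed within 18.4 to 20.8, and their control ranges overlapped. At the foot were Gata2 (1.79), Aplnr (1.64) and Apln (0.774). Esm1 was thirtieth in this order at 2.36 CPM per kilobase, so the 2 members that DESeq2 called stood at very different levels. Exons of Egfl7 and Rasip1 overlap those of another gene on the same strand in GENCODE M21. Those of Sox17, Gja5, Ecscr and Eng overlap exons on the opposite strand only. How reads on these stretches were counted is not known.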

How the data were processed

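Per the labels, total RNA of the thoracic aorta was depleted of ribosomal RNA and made into stranded libraries. The submitters' processing notes name CASAVA 1.8.2, STAR 2.5.2b, HTSeq 0.6.1p1 and mm10; the annotation is not given in the sources used here. The authors deposited raw counts per gene symbol, without normalization, and 3 rows of reads on no gene (8.02% to 14.9%), ambiguous (0.606% to 0.698%) or aligned to several places (18.1% to 23.2%), which were left out of tests. Groups came from the labels. The column of A1 holds 3 of the 4 digits of its mouse number. Nothing pairs the mice. Column numbers 1 to 12, of meaning not given, put controls at 3 to 7 and 12 and AZ6983 mice at the rest; they were not used in a fit. The 66 pairs of libraries differed by 12.9 to 250 chi-square per degree of freedom, so no library was a copy of another.

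The test on counts was that of edgeR 4.0.16 under R 4.3.3 (TMM, filterByExpr, quasi-likelihood test, no covariate, 15857 genes, Benjamini-Hochberg, 10% FDR as in the study). The standard error is the log2 fold change over the square root of F. Alternatives were DESeq2 1.42.0, limma-voom (3.58.1), other scalings and filters, the percentage of reads outside genes as a covariate and each mouse left out. Leaving out A4 and A5 together, DESeq2 with each mouse left out, and the other lists without A3, A4 or A5 were chosen after seeing the data. Log2 CPM used a prior count of 2. Steps were tested on simulated data.

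The 36 members and all lists were chosen with earlier results of these data known. Full values are given for Vwf, Esm1, members with an unadjusted p under 0.05, the most abundant member per kilobase in each role, Cdh5, Pecam1, Klf2 and Klf4. Other members are given by log2 fold change. Genes of other lists with an unadjusted p under 0.05 are counted, and only some of them are named. Of the other lists, 2 genes (Bmp10 and Proc) were not analysed here, and Vegfd and Cnmd were read under Figf and Lect1. Gene positions and exon lengths came from GENCODE M21. Intervals cover the spread between mice.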

Additional observations from a re-analysis of the deposited data

Results flagged for a closer look

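In 76 groups of 6 mice (the 36 genes, the median of the members and the number above their own median, under each treatment), a single mouse lay far from its group in 3, and about 3.8 would by chance, at 1 in 20. Cdh5 was high in A5, at 7.32 log2 CPM with the other AZ6983 mice at 6.51 to 6.79. Ecscr was low in control C6, at 3.85 log2 CPM with the other controls at 4.11 to 4.21. Aplnr was low in control C4, at 0.77 log2 CPM with the other controls at 2.46 to 3.05, from 44 counts.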

How the results depend on the processing

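No paired analysis was possible because the labels and methods give no pairing of control and AZ6983 mice. DESeq2 called 2 members at 10% FDR, on every gene and on the genes past edgeR's filter, where edgeR called 0. With a mouse left out, DESeq2 on every gene called 0 to 3 members, Vwf in 5 and Esm1 in 7 of 12 fits, with adjusted p values of 0.0112 to 0.455 and 0.0244 to 0.345. Over all genes it called 20 (without A6) to 388 (without A5). Without C1, C5, A2, A3 or A6, where it called 20 to 119 genes in all, it called 0 members. In edgeR, 0 were called in every fit with a mouse left out, 4 to 9 members were higher and 0 to 2 lower at an unadjusted p under 0.05 (1 lower without C2, 2 without A1), and the median log2 fold change was 0.0656, without A5, to 0.16. The share of all genes higher at an unadjusted p under 0.05 was 4.63% to 9.38% in those fits. With the percentage of reads on no gene as a term, Cldn5, Esam, Mmrn2 and Esm1 were higher at an unadjusted p under 0.05, as were 1.87% of all genes. The percentage differed between the groups, so this term and treatment cannot be fully told apart. In that fit 29 log2 fold changes were above 0, beside 53.8% of all genes. These changed sign: Pecam1 0.16, Egfl7 0.14, Kdr −0.0259, Flt1 −0.0759, Eng −0.0443, Sox18 0.0206, Sox7 −0.12, Klf4 −0.11, Procr 0.0285, Cytl1 0.17, Gja5 0.16 and Bmx 0.0611. Without A4 and A5 the sign changed for Kdr (−0.0928), Flt1 (−0.11) and Sox7 (−0.0782). Clec14a changed sign with DESeq2 on every gene (−0.00618), upper quartile scaling (−0.00347), library totals only (−0.000406) and no filter (−0.017), and Sox18 with a minimum mean of 50 counts (0.00783). With a mouse left out the range crossed 0 for Clec14a (−0.0541 to 0.0819), Egfl7 (−0.0634 to 0.0206), Tek (−0.00104 to 0.067), Kdr (−0.0899 to 0.22), Flt1 (−0.14 to 0.14), Sox18 (−0.14 to 0.0751), Sox7 (−0.0912 to 0.20), Gata2 (−0.22 to 0.055), Procr (−0.0759 to 0.0271) and Aplnr (−0.0258 to 0.30). In 20 of the 36 genes the direction held in every alternative. The causes were not tested. With 6 mice a group the median width of a 95% interval was 0.50 log2 units, which limits what could be seen.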
